A study of Mus musculus with 2 samples.

Results

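Claudin 18 is encoded by Cldn18, 1 of the 43346 genes with an Ensembl ID in the deposited tables, and it was taken there by its ID together with all 4 of its transcripts. The data come from the whole stomach of 2 B6NCrl mouse pups, littermates of the same dam taken on postnatal day 0, with 1 total RNA library per pup. The labels name no treatment and no second group, so the libraries are 2 replicates of 1 condition, named pup 1 and pup 2 by the numbers in the labels. Library totals were 51524479 expected counts in pup 1 and 49983574 in pup 2. Marker genes of the glandular stomach and of the squamous forestomach were present at the levels given below, as the tissue label states, and a whole organ mixes epithelium with muscle, nerve, vessel and blood cells. Values are TPM, each transcript's length-corrected share of all transcripts in its library, so that it is a level per length. Means carry the SD of 2 pups.

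Claudins are membrane proteins with 4 passes through the lipid bilayer whose outer loops meet those of the neighbouring cell and seal or gate the space between epithelial cells. Claudin 18 is the claudin of gastric and lung epithelium. The gene has a pair of alternative first exons, each with its own promoter, spliced to the same downstream exons. The protein made from one is the stomach form (A2) and the protein made from the other is the lung form (A1), and they differ in the first membrane pass and part of the first outer loop. In adult stomach the protein is known for limiting leakage of acid between cells, and the human stomach form is an antibody target in gastric cancer.

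On mm10 the gene lies on the minus strand of chromosome 9, at chr9:99689461-99717267. The upstream first exon (chr9:99716996-99717267) belongs to transcripts Cldn18-202 and Cldn18-203. The downstream first exon lies 7204 bases further along the gene, start to start, and belongs to Cldn18-201 (chr9:99709729-99710063) and Cldn18-204 (chr9:99709729-99710009). The upstream exon encodes the protein start known as the stomach form, and the downstream exon that known as the lung form. Both coding parts hold 220 bases, so they can be set base against base. They are shown because this stretch tells the forms apart; capitals mark each base that differs, and both run 5′ to 3′ on the gene's strand from the start codon, from the GENCODE transcript sequences.
Upstream first exon, coding part, chr9:99716996-99717215: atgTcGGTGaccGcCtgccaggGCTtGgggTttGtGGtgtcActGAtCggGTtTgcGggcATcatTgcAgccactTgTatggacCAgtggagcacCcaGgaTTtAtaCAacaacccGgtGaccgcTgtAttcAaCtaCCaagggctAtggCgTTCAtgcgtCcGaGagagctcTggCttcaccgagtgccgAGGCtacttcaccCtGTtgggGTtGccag
Downstream first exon, coding part, chr9:99709729-99709948: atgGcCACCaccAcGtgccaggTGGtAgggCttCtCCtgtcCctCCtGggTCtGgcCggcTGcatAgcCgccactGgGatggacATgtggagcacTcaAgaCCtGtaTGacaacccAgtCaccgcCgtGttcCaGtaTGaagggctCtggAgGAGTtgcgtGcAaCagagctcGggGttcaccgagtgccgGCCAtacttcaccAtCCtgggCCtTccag
Of the 220 bases, 67 differ and 153 are the same (69.5%), and the longest identical run is 14 bases. Of the 73 whole codons, 27 are identical, 26 differ without changing the amino acid and 20 encode another amino acid. The 572 coding bases that follow in the full reading frame are common to both forms.

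The transcripts also differ at the end of exon 4, where a longer version of the exon adds 12 bases (chr9:99696054-99696065). Cldn18-203 and Cldn18-204 carry the longer exon, of 123 bases in place of 111. The junction is shown with the added bases in capitals.
Exon 4 to exon 5, Cldn18-202 and Cldn18-201: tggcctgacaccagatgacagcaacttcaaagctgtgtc
Exon 4 to exon 5, Cldn18-203 and Cldn18-204: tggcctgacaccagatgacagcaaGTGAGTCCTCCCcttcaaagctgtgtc
The added bases hold the stop codon TGA in frame. The reading frame of 264 codons thereby ends after 208, and 56 codons of the cytoplasmic tail are lost, among them the final residues by which claudins bind scaffold proteins such as ZO-1.

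**Figure D1:**
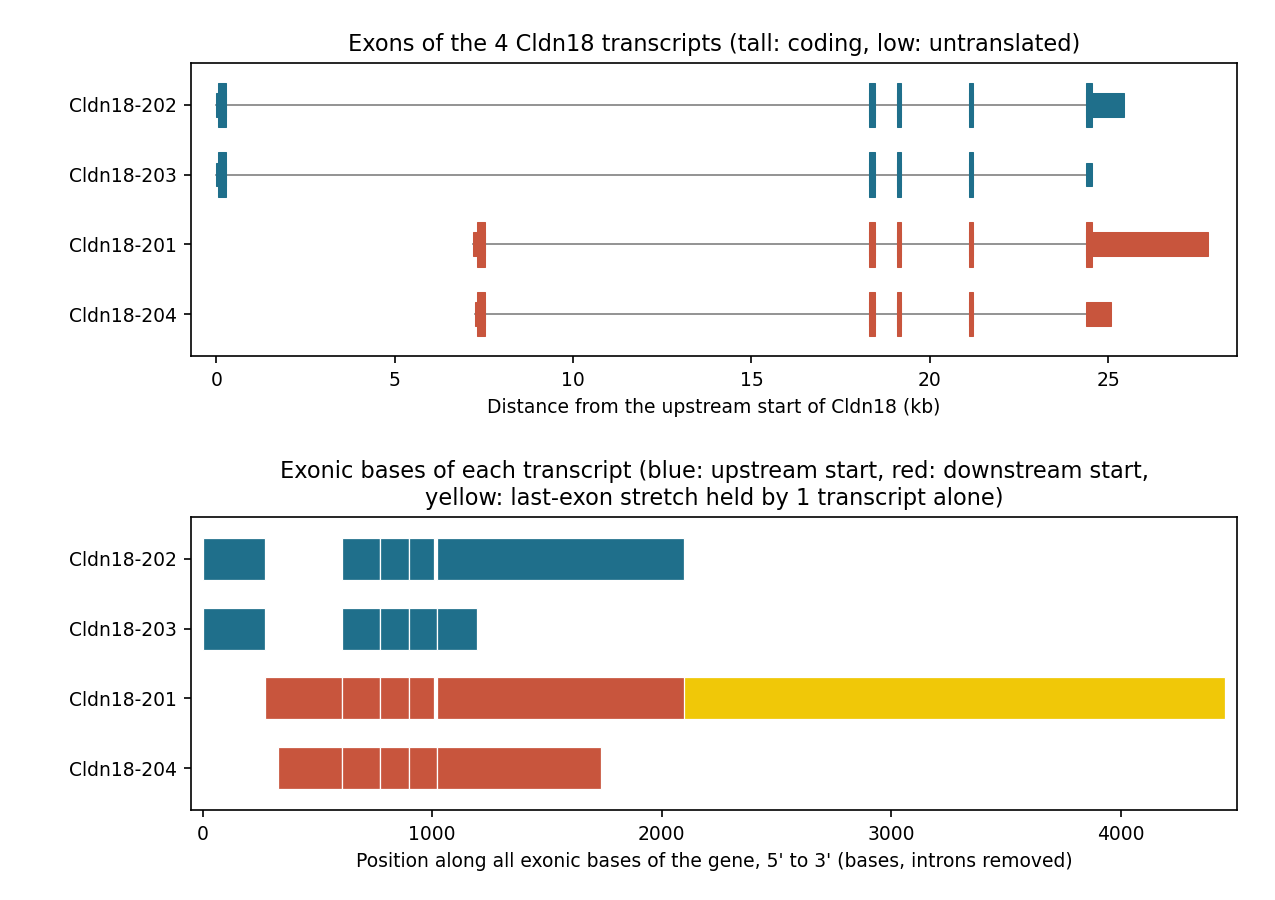
The upper panel draws the exons of the 4 transcripts to scale against distance from the upstream start in kb, and the lower panel lines up their exonic bases without introns. Blue transcripts begin at the upstream start and red ones at the downstream start. The yellow stretch of 2359 bases in the last exon is held by Cldn18-201 alone.

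The summed level of Cldn18 was 499.75 TPM in pup 1 and 524.13 TPM in pup 2, and these rest on 36908 and 38825 expected counts. The pups lay close together, and the mean was 512 ± 17.2 (n = 2). It ranked 240th of 21461 nuclear protein-coding genes by mean level, at or above 98.9% of them. The gene's count was a whole number with a posterior SD of 0 in both pups, so no read was divided between Cldn18 and another gene. In bulk RNA of a whole organ, fewer cells of a type and less RNA per cell cannot be told apart.

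The largest part of that level was Cldn18-202 (ENSMUST00000112882.4), the stomach form with the full reading frame. Pup 1 had 303.60 TPM of it and pup 2 had 324.70, and its share of the gene's TPM was 60.75% and 61.95%. It was the leading transcript in both pups, from 20729 and 21303 expected counts.

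Cldn18-203 (ENSMUST00000131922.1), the stomach form with the early stop, came next, with 123.10 TPM for pup 1 and 112.12 for pup 2. Its share was 24.63% and 21.39%, from 3874 and 3391 expected counts. Within the upstream start, the early stop held 28.8% of TPM in pup 1 and 25.7% in pup 2, so that the full frame stood 2.47-fold and 2.90-fold above it.

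Cldn18-201 (ENSMUST00000035048.7), which joins the lung-type first exon to the full reading frame, reached 73.05 TPM in pup 1 and 87.31 in pup 2, below both stomach-form transcripts in each pup. Its share was 14.62% and 16.66%, from 12304 and 14131 expected counts. Cldn18-204 (ENSMUST00000136429.3), the lung-type exon with the early stop, was listed at 0 in both pups. The deposited intervals for it reached up to 1.35 TPM in pup 1 and 0.624 in pup 2, and its posterior mean counts were 22.9 ± 23.9 and 10.5 ± 11.7 (posterior SD). Within the downstream start the early stop therefore held 0.607% and 0.255% of the posterior mean TPM, against 29.0% and 25.6% within the upstream start by the same measure. Thus 3 of the 4 transcripts had reads assigned, and the early stop was assigned almost wholly to the upstream start. The level of the downstream start is almost wholly that of Cldn18-201, whose reading is limited as set out below. The contrast between the starts carries the same limit, and whether splicing differs between them was not tested.

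**Figure D2:**
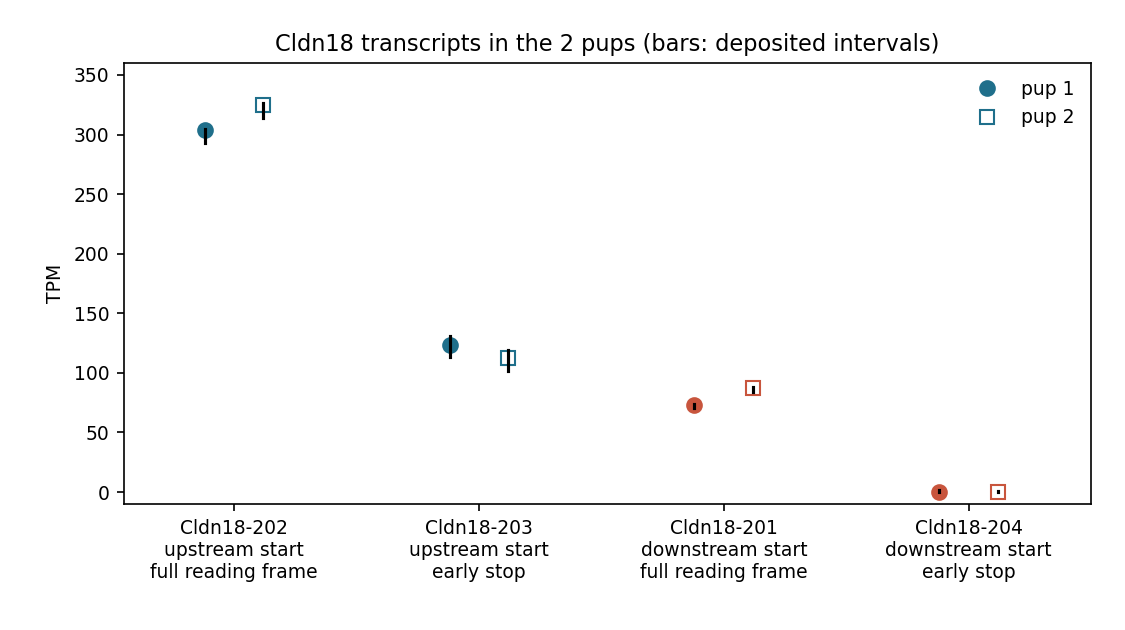
TPM of each transcript is plotted for pup 1 (filled circles) and pup 2 (open squares), with black bars for the deposited interval of each estimate. Cldn18-202 stands at 303.60 and 324.70, Cldn18-203 and Cldn18-201 lie between 73.05 and 123.10, and Cldn18-204 is at 0.

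Summed by start, the stomach-type first exon held 426.70 TPM in pup 1 and 436.82 in pup 2, and the lung-type first exon 73.05 and 87.31. The upstream share was 85.4% and 83.3%, a mean of 84.4 ± 1.44% (n = 2), and the upstream start stood 5.8-fold and 5.0-fold above the other. In reads rather than molecules the upstream share was lower, at 66.7% and 63.6% of the gene's expected counts, since Cldn18-201 is 4172 bases long and Cldn18-202 only 1750.

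The annotation limits how this lung-type share can be read. Cldn18-201 is the only transcript of the 4 that continues through the last 2359 bases of the gene's 3′ end, which make up 56.5% of its length, while its first exon makes up 8.03%. Only 54 further bases, at its 5′ end, are its own. Cldn18-202, Cldn18-203 and Cldn18-204 have 0 bases of their own, so their levels rest on bases shared with another transcript. A read from the far 3′ end could be assigned to no transcript but Cldn18-201, whichever first exon its molecule began with. The deposited tables give 1 count per transcript and no position of reads along it, so that reads from the lung-type first exon and reads from the far 3′ end cannot be told apart here. Leaving Cldn18-201 out, or counting it with the upstream start, puts the upstream share at 100% by construction, since Cldn18-204 was listed at 0. No read was reassigned in doing so, and both alternatives were chosen after the values were seen. The split by splice form has a limit of the same kind, since Cldn18-203 is annotated with 860 bases and ends 1 base past the stop codon of the full frame, so that reads from a longer 3′ end of such molecules could be assigned only to the other transcripts.

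Lung markers were measured beside the lung-type transcript, in the same libraries. Of the 6 alveolar type 2 markers, 2 were detected, taken as 1 TPM or more in each pup. By that limit 61.2% of all protein-coding genes were detected, which is the background for every count of detected markers. The surfactant genes Sftpc, Sftpa1 and Sftpb were at or near 0: Sftpc had 10 counts in pup 1 and 11 in pup 2, Sftpa1 had 2 and 6, and Sftpb had 0 and 1. Lamp3, of the lamellar bodies, had 1 count in each pup, while the lipid transporter Abca3 stood at 8.33 ± 1.02 and the collectin Sftpd at 4.08 ± 0.0283. The list summed to 12.04 TPM in pup 1 and 13.62 in pup 2, below the 73.05 and 87.31 of Cldn18-201. A sum over chosen genes and the level of a single transcript are unlike measures. Which cells hold Cldn18-201 was not tested.

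Nkx2-1, the lung and thyroid transcription factor, had 0 counts in pup 1 and 2 in pup 2. Of the alveolar type 1 list, Ager, which encodes the receptor RAGE, stood at 1.44 ± 0.184 and Rtkn2 at 1.46 ± 0.0990. Hopx (24.5 ± 2.18) and Pdpn (27.3 ± 5.16), which other tissues also express, lay higher, and all 4 members were detected. Among airway genes, the club cell gene Scgb1a1 stood at 10.03 ± 1.06, Scgb3a2 at 0.925 ± 0.318 and the ciliated cell factor Foxj1 at 0.250 ± 0.127. The airway list summed to 11.64 TPM in pup 1 and 10.77 in pup 2. Sftpc, Sftpa1, Sftpb, Lamp3 and Nkx2-1 thus had at most 11 counts in either pup, while Abca3, Sftpd, Scgb1a1 and the alveolar type 1 genes were detected.

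The stomach lists summed to higher levels than the lung lists. All 6 surface mucous, 6 parietal, 5 chief and 6 squamous markers were detected, as were 3 of 4 mucous neck markers, beside 61.2% of all protein-coding genes. Their TPM summed to 22922 and 23328 for surface mucous cells in pups 1 and 2, led by the secreted Tff1, Gkn2 and Gkn1, and to 1285 and 1536 for parietal cells, led by the proton pump subunit genes Atp4b and Atp4a and the channel gene Clic6. The chief cell list, led by the protease genes Cym, Pga5 and Pgc, summed to 80512 and 86520, and the squamous list, led by Krtdap, Krt4 and Krt13, to 17848 and 18789. The mucous neck list, led by Tff2, Gkn3 and Muc6, summed to 919 and 817. Of the list chosen as gastric epithelial factors, 8 of 8 were detected, led by Elf3 (135 ± 6.08), Klf5 (107 ± 16.0) and Gata4 (27.8 ± 5.70). Whether these factors are particular to stomach was not tested. The level of Cldn18 lay near that of Atp4a (519.49 in pup 1 and 598.04 in pup 2) and above that of Muc1 (185.83 and 222.52), an epithelial mucin of the surface list. The mucin gene Muc5ac was the lowest of that list, at only 2.51 TPM in pup 1 and 2.89 in pup 2.

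**Figure D3:**
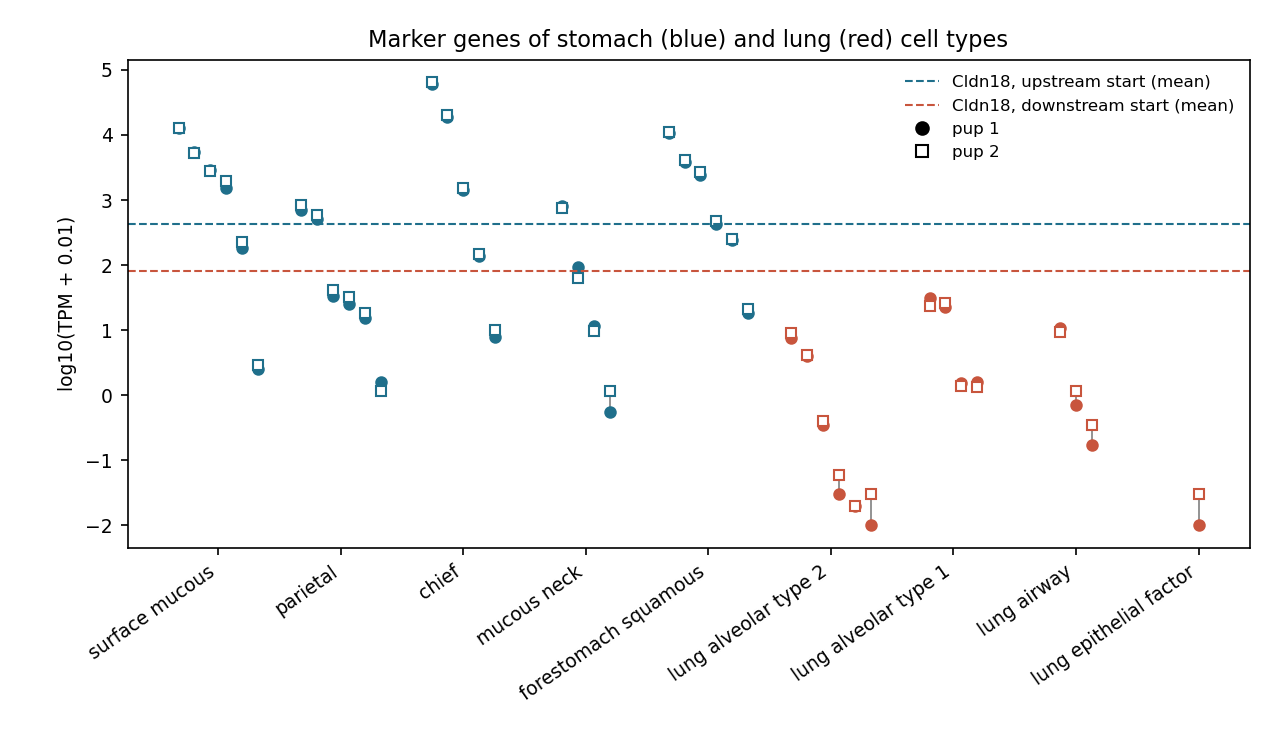
Each point is 1 marker gene in pup 1 (circles) or pup 2 (squares), as log10 of TPM plus 0.01, with stomach lists in blue and lung lists in red. The dashed lines give the mean of the upstream (432) and downstream (80.2) Cldn18 transcripts, and all lung markers lie below both lines.

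Among claudins, Cldn18 was the highest of 33 genes in both pups and held 65.0% of the family's summed TPM in pup 1 and 65.7% in pup 2. Of the 33, 14 were detected by the limit of 1 TPM, beside 61.2% of all protein-coding genes, and 10 had no count in either pup. Cldn7, a claudin of lateral epithelial membranes, came next at 110.4 and 105.24, 4.75-fold below Cldn18 by mean. It was followed by the barrier claudin Cldn4 (41.0 ± 4.72), Cldn23 (29.8 ± 1.20), Cldn5, the claudin of endothelium (18.6 ± 2.34), and Cldn17 (14.8 ± 0.940). From Cldn17 down to Cldn12 (11.5 ± 0.679), through Cldn3 and Cldn1, the deposited intervals of each pair of neighbours overlapped in at least 1 pup. Cldn2, which forms a cation pore, stood at only 0.145 ± 0.0212.

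**Figure D4:**
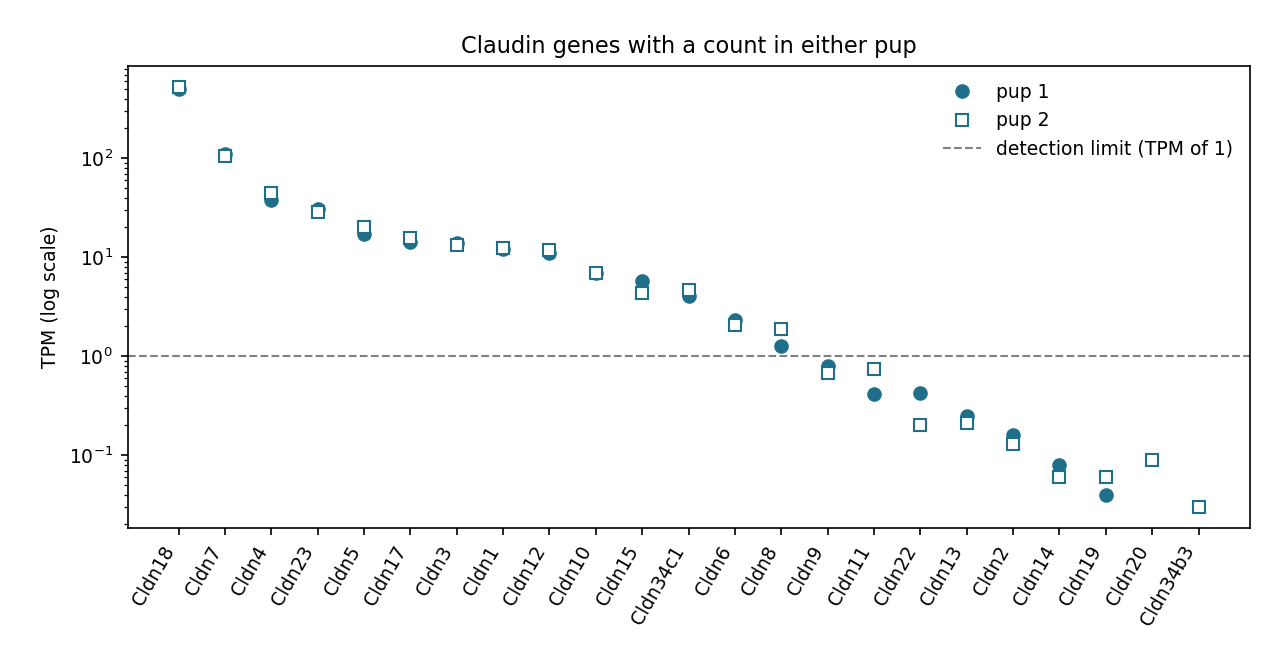
TPM on a log axis is plotted for the 23 claudin genes with a count in either pup, ordered by mean, for pup 1 (filled circles) and pup 2 (open squares), with values of 0 left out. Cldn18 stands apart from the rest in both pups, and 14 genes lie above the dashed line at a TPM of 1.

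All 16 tight junction partners of the list chosen for this gene were detected, beside 61.2% of all protein-coding genes. The adhesion molecule gene F11r led them at 89.8 ± 10.2, ahead of the polarity gene Crb3 at 67.5 ± 4.77 and Ocln, which encodes occludin, at 56.9 ± 0.177. The median of the list was 10.6, and the scaffold genes Tjp1 and Tjp3 stood at 10.8 ± 0.325 and 34.8 ± 1.33. Every partner lay below Cldn18 by more than the spread between the pups.

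The pups differed little in Cldn18. The TPM was 1.05-fold higher in pup 2, a log2 ratio of 0.07, and the deposited intervals (486 to 500 in pup 1, 509 to 524 in pup 2) lay apart. Among 13951 genes with a mean count of at least 100, 12.9% had intervals apart with the higher level in pup 2, and 8.33% with the lower. Of the 757 genes with a mean count of at least 10000, as Cldn18 has, 60.1% were apart in either direction and 26.4% were apart and higher in pup 2. The typical gene differed by more, with a median of 1.08-fold in either direction. A 2-fold difference with intervals apart was found in 0.423% of genes, and in no claudin. With 1 library per pup these comparisons set 2 libraries against each other and have no replicate check.

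By transcript, Cldn18-201 was 1.20-fold higher in pup 2 (intervals 70.5 to 73.6 and 84.3 to 87.8) and Cldn18-202 1.07-fold (293 to 305 and 314 to 327), both with intervals apart. Among 22395 transcripts with a mean count of at least 100, 8.48% were apart and higher in pup 2. Cldn18-201 and Cldn18-202 each had more than 10000 counts, and the share among transcripts of that depth was not computed. For genes it was 12.9% from 100 counts upward and 26.4% from 10000 upward. The intervals of Cldn18-203 overlapped (113 to 131 in pup 1, 101 to 119 in pup 2). The share of the upstream start differed between pups by 2.04 percentage points. Among claudins with a mean count of at least 100, 5 of 14 had intervals apart, 4 with the higher level in pup 2 (Cldn18, Cldn4, Cldn5 and Cldn8) and 1 with the lower (Cldn15, a pore-forming claudin, at 5.80 and 4.38), where 21.2% of all genes did. Of the 16 tight junction partners, 5 were apart and higher in pup 2 and 1 was apart and lower. Among all genes with a mean count of at least 100, 12.9% were apart and higher and 8.33% apart and lower.

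Use of more than 1 start was compared across genes. The 4566 nuclear protein-coding genes taken had 5 TPM or more in each pup and at least 2 annotated first exons that do not overlap. Across them the leading start held a median of 91.3% of TPM. Cldn18, at 84.4%, lay above 39.0% of them. In the 1470 genes with exactly 2 starts the median was 98.1%, and 20.8% had a lower leading share than Cldn18. The TPM of the second start, 80.2 in Cldn18, was exceeded in 78 genes, and its median was 1.495. The difference in share between pups was smaller than that of Cldn18 in 54.9% of the 4566 genes, with a median of 1.64 percentage points. In 206 of these genes (4.51%), the leading transcript of the second start also reached at least 100 bases past the 3′ end of every other transcript, as Cldn18-201 does.

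**Figure D5:**
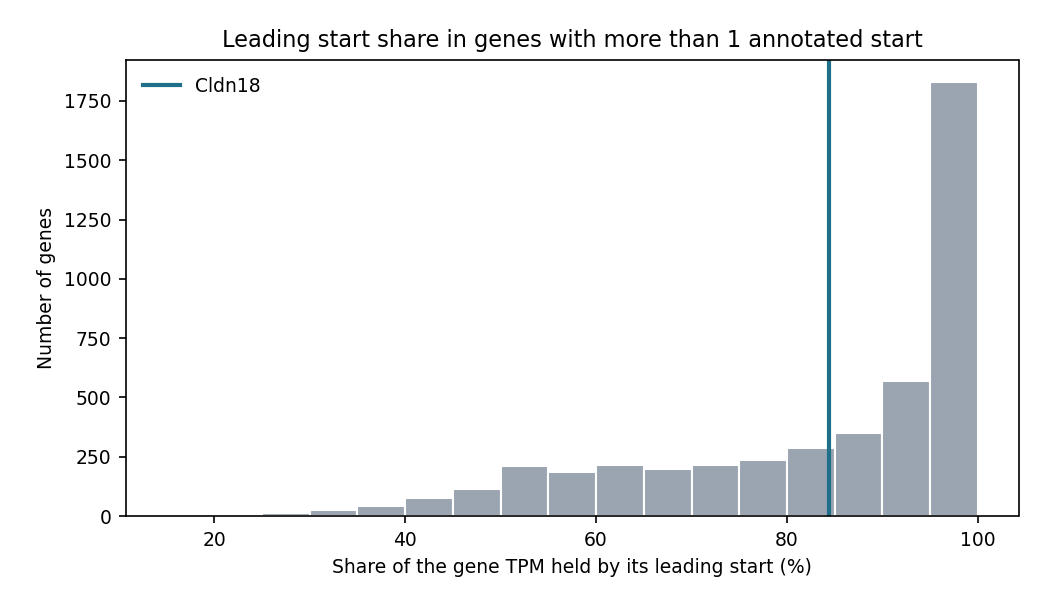
Bars count genes by the share of TPM held by their leading start, in steps of 5 percentage points, for 4566 genes with more than 1 annotated start. The blue line marks Cldn18 at 84.4%, to the left of the highest bar, which holds 1831 genes with a share from 95% to 100%.

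The 250 bases before each start were set side by side, because the annotation gives the gene both starts. They come from RefSeq on GRCm38.p6, the assembly also called mm10, and are printed 5′ to 3′ on the minus strand with matches to the motifs searched in capitals.
Before the upstream start, chr9:99717268-99717517: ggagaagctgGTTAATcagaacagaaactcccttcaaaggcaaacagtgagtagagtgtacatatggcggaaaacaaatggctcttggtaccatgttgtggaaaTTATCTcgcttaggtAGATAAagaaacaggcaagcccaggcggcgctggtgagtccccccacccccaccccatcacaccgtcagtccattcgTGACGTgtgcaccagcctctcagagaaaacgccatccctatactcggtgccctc
Before the downstream start, chr9:99710064-99710313: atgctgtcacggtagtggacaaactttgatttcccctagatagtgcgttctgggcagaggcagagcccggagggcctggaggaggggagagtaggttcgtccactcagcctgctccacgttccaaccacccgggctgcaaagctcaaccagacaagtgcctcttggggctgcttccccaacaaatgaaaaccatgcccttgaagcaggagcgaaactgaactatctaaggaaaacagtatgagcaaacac
The search took 8 motifs on both strands. For general promoter elements it took TATAAA, the TATA box, and CCAAT, the box of that name. For factors of gut epithelium it took AGATAA, a core that GATA proteins bind, and GTTAAT, which is part of the HNF1 site. For signal-dependent factors it took TGANTCA, bound by AP-1, and TGACGT, which is part of the cyclic AMP response element. For lung and progenitor factors it took CTCAAG, bound by NKX2-1, and ACAAAG, bound by SOX proteins. None of the matches overlapped another. The upstream window held AGATAA at 2 places, 146 and 131 bases before the start, and 9.99% of 32851 RefSeq promoter windows of this length held it. It also held TGACGT (54 bases before the start, in 6.47% of windows) and GTTAAT (240 bases before the start, in 6.43%). The downstream window held none of the 8 motifs, and the upstream window none of the other 5, which says only that these letters are not there. The windows were 52% and 54% G and C.

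The neighbourhood of the gene on chromosome 9 was also read. A4gnt, which adds the sugar cap of gland mucins in the stomach, lies 67094 bases from Cldn18 and stood at only 3.90 TPM in pup 1 and 3.73 in pup 2. Dzip1l, a cilium gene 20205 bases away, had 7.21 and 5.30. The antisense gene Gm16004 (chr9:99708399-99756043) spans both first exons of Cldn18 on the plus strand but shares no exonic base with it, and it was listed at 0 counts in both pups. The snoRNA gene Gm23949 was also listed at 0, but its RNA is shorter than the size the libraries took, so that its level was not measured. Cldn18 stood far above A4gnt and Dzip1l, the other protein-coding genes within 100000 bases.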

How the data were processed

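Total RNA above 200 nucleotides from 2 newborn stomachs was sequenced from 10 ng per library, per the labels. The authors deposited, per library, gene and transcript tables on mm10 with GENCODE M4, as the deposited sample text states. The program and strandedness were not given in the sources used here, and the column names are those of RSEM. The deposited expected counts are estimated reads, unscaled for depth; the deposited TPM values are scaled per length to 1 total over all features; the deposited FPKM values are per kilobase and total reads; the isoform share is the deposited percent of a gene's TPM. The deposited intervals are taken as 95%, the usual level of that program, which the files do not state. They belong to the posterior mean, so the TPM can lie at their edge or outside them. For Cldn18 in pup 2 the TPM was 524.13 and the upper bound 523.898.

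Symbols, exons and positions came from GENCODE M21 on the same assembly, by ID without version (42462 of 43346 genes); all 4 Cldn18 transcripts had the same length in both. Across genes, transcripts with unchanged length were kept, in genes where they held at least 95% of TPM. No test was run, since there is 1 group; ratios are log2 of TPM plus 1. Scaling alternatives used edgeR 4.0.16 (TMM) and DESeq2 1.42.0. Sequence work used Python 3.11.15. A count of 0 allows up to 3 counts, a CPM of 0.0582 in pup 1 and 0.0600 in pup 2, counting error only. The gene, the lists and the motifs were chosen with earlier results of these data known. The genes named were Cldn18 and its transcripts, the 5 next claudins and any 2-fold apart, and all lung markers. Also named were the 3 highest of each other list, neighbours within 100000 bases, and the 5 genes nearest in level. Cldn12, Cldn3, Cldn1, Cldn2, Cldn15, Cldn8, Tjp1, Tjp3, Muc1 and Muc5ac were added after their values were seen.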

Additional observations from a re-analysis of the deposited data

How the results depend on the processing

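No paired analysis was possible because the 2 libraries form 1 group. Cldn18 was the highest claudin under every alternative run. Its mean level was 409 in FPKM, 747 as CPM and 606 as TPM over nuclear protein-coding genes alone; these are other units or totals. It was 499.75 to 524.13 with 1 pup left out. The upstream share was 65.1% of expected counts, and 83.3% to 85.4% with 1 pup left out. It was 100%, by construction, with the transcript that holds the far 3′ end left out or counted with the upstream start. Both of these were added after the values were seen. The log2 ratio of the pups was 0.12 by CPM, 0.093 with TMM scaling and 0.090 with DESeq2 size factors, the same direction throughout. The number of claudins detected was 10 to 19 over the limits tried and 14 in each pup alone. The genes at least 2-fold apart numbered 59, or 228 with a limit of 1.5-fold and 158 when genes from 10 counts upward are taken, since more genes can pass. Of 31 alternatives, 20 moved a value by less than its spread or limit and 11 by more. Only the log2 ratio of the pups could change sign, and it did so under 0 of its alternatives. Levels, shares and counts cannot fall below 0, so for them a reversal was not possible. The 2 pups share a dam, so the SD covers littermates only.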

Other observations

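Genes whose level lay nearest to that of Cldn18 were ranked by the Euclidean distance of log2(TPM + 1) over the 2 libraries, which is a likeness of level and not of a pattern. The nearest 5 protein-coding genes were Ndufab1 (a distance of 0.0224, at 507.59 TPM in pup 1 and 524.44 in pup 2), Ndufb8 (0.0377) and Uqcrh (0.0377) of the respiratory chain, the actin nucleation gene Arpc2 (0.0384) and the cell cycle inhibitor gene Cdkn1a (0.0397).

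The leading transcript of Cldn18 held 61.35% of its TPM as a mean of the pups. Among 7078 protein-coding genes that have 2 or more transcripts and at least 5 TPM in each pup, 36.1% had a lower leading share. Among the 893 with 4 transcripts, as Cldn18 has, the median was 81.6% and 23.9% lay lower.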
